A study of Mus musculus with 14 samples.

Results

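UMI-4C libraries from Nanog bait 1, which lies inside the mouse Stag1 gene, were compared between embryonic stem cells (ESC) and neural stem cells (NSC). The members were all libraries titled with this bait, 7 of the 14 in the series (4 ESC and 3 NSC), and the remaining libraries come from other baits of the same locus. ESC were grown in 2i medium with LIF, NSC in medium with EGF and FGF, and both were untreated. The labels give neither the strain, the genotype nor the origin of the NSC, and the study describes its ESC as male E14 cells without stating this for each assay. What the word Nanog stands for in the name of the bait is not given in the labels. From each file, the rows that end on the bait were kept, and the partner ends more than 10 kb from the bait were counted.

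UMI-4C records which fragments of the genome were ligated to a chosen bait after crosslinking and cutting of chromatin, so that fragments that lie close together in the nucleus are joined more often. Each ligation product has its own sheared end, which acts as a unique molecular identifier (UMI), and copies made by PCR count as a single contact. Contacts fall steeply with distance along the chromosome, and they are more frequent inside a topologically associating domain (TAD) than across its borders, where the factor CTCF often holds the ring-shaped cohesin complex. STAG1 is one of the alternative STAG subunits of cohesin, so the locus examined here encodes a part of the machinery that folds it. No gene expression was measured in these libraries, so marker genes of ESC and NSC could not be checked.

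The bait is a fragment end at chr9:100619989 in GRCm38 (mm10). It lies in an intron of Stag1 (ENSMUSG00000037286.15, plus strand, 100597798 to 100959375). The first exon of the transcript that begins at the first annotated start ends at 100598109, and its next exon begins at 100705153. The bait sits nearly midway between that first start, 22.2 kb on the side of lower coordinates, and the next cluster of starts, 23.5 kb on the other side, which begins at 100643448 and holds the canonical promoter. Every listed end on chromosome 9 lay at a GATC site of the reference (100%), against 0.158% when all positions were moved by 100 bp. The plus strand around the bait, chr9:100619939-100620038, is shown with the GATC of the bait end in capitals.

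bait 1: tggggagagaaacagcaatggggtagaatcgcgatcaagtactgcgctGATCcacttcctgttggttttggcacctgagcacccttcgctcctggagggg

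The neighbouring GATC site on the lower side starts 16 bp away, whereas that on the higher side is 877 bp away. The strongest single contacts of both cell types lay in the same intron. The 5 ends with the most UMIs in each cell type made 7 different ends, because 3 were on both lists, and all lay between 10.3 and 14.9 kb from the bait. They are shown because they are the sites that were ligated to the bait most often outside the excluded zone, each with 18 bases on either side of its GATC in capitals (plus strand).

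chr9:100605995-100606034: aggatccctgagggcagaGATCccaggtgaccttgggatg

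chr9:100609277-100609316: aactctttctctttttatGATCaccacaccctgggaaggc

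chr9:100609309-100609348: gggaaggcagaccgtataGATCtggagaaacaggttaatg

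chr9:100630307-100630346: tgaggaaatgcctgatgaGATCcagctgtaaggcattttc

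chr9:100632321-100632360: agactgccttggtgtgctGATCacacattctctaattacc

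chr9:100633586-100633625: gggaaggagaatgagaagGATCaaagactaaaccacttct

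chr9:100634836-100634875: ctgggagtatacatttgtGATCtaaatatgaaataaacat

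The end at 100609329, in the sequence that starts with gggaaggc, had the highest mean share in ESC and was not among the first 5 in NSC. It carried 24, 11, 20 and 26 UMIs in ESC replicates 1 to 4 and 8, 10 and 8 UMIs in NSC replicates 1 to 3. The end at 100630326 led in NSC and was second in ESC, with 26, 10, 16 and 27 UMIs in ESC and 14, 12 and 14 in NSC. Such counts are small and several of the libraries are not independent, so single ends were not tested.

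The libraries held 7261 to 28164 UMIs each, of which 3439 to 10083 had a partner 10 kb to 1 Mb away, a span called the region here. At these depths 3 UMIs correspond to 0.0298% to 0.0872% of the region. Between 99.1% and 99.7% of the ends on other chromosomes carried a single UMI, so independent libraries should share few of them. In 3 pairs of libraries of a cell type, however, 82.6% to 85.7% of these ends were shared. Each such pair was averaged and counted as 1 sample, which left 2 samples per cell type. ESC A is the mean of replicates 1 and 4, ESC B that of replicates 2 and 3 and NSC A that of replicates 1 and 3, while NSC B is replicate 2 alone. The 6 pairs made of a library of ESC A with one of NSC A, or of ESC B with one of NSC B, shared 0.466% to 12.3%, and the other 12 pairs at most 0.394%. ESC A with NSC A, and ESC B with NSC B, are therefore called linked pairs, and differences within them are given where they matter. ESC B was the shallowest sample, with 10518 UMIs against 28110 in ESC A, 24227 in NSC A and 19410 in NSC B. The labels do not say that the samples came from separate cultures, so the p-values measure only the spread between these samples.

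In ESC a larger part of the contacts within the region fell within 200 kb of the bait, and in NSC a larger part lay beyond 500 kb. Between 10 and 50 kb from the bait, the share of the region's UMIs was 25.1% in ESC A and 29.4% in ESC B, against 22.9% in NSC A and 22.6% in NSC B. Both ESC samples lay above both NSC samples. The difference was 4.49 percentage points, from 27.3% ± 3.02 (SD, n = 2) in ESC to 22.8% ± 0.208 in NSC.

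From 50 to 100 kb, the shares were 18.5% and 19.2% in ESC and 15.4% and 14.3% in NSC. From 100 to 200 kb they were 17.9% and 18.1% in ESC and 15.6% and 15.7% in NSC. In these bands too the cell types did not overlap, and the spread within each was small. The order turned at longer range. Between 200 and 500 kb the samples overlapped, at 23.7% ± 0.906 (SD, n = 2) in ESC and 24.2% ± 0.309 in NSC. Between 500 kb and 1 Mb, ESC A had 14.2% and ESC B 10.3%, whereas NSC A had 21.7% and NSC B 23.4%. This was the band with the widest gap, −10.3 percentage points for ESC against NSC, and it lay at −7.42 in the first linked pair and −13.2 in the second. As shares of all UMIs outside 10 kb, however, this band held 5.44% and 5.71% in ESC and 5.95% and 5.56% in NSC, and the samples overlapped. On that scale the bands up to 500 kb were all higher in ESC, by 4.44 to 7.15 percentage points, that of 200 to 500 kb included (4.85).

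**Figure D1:**
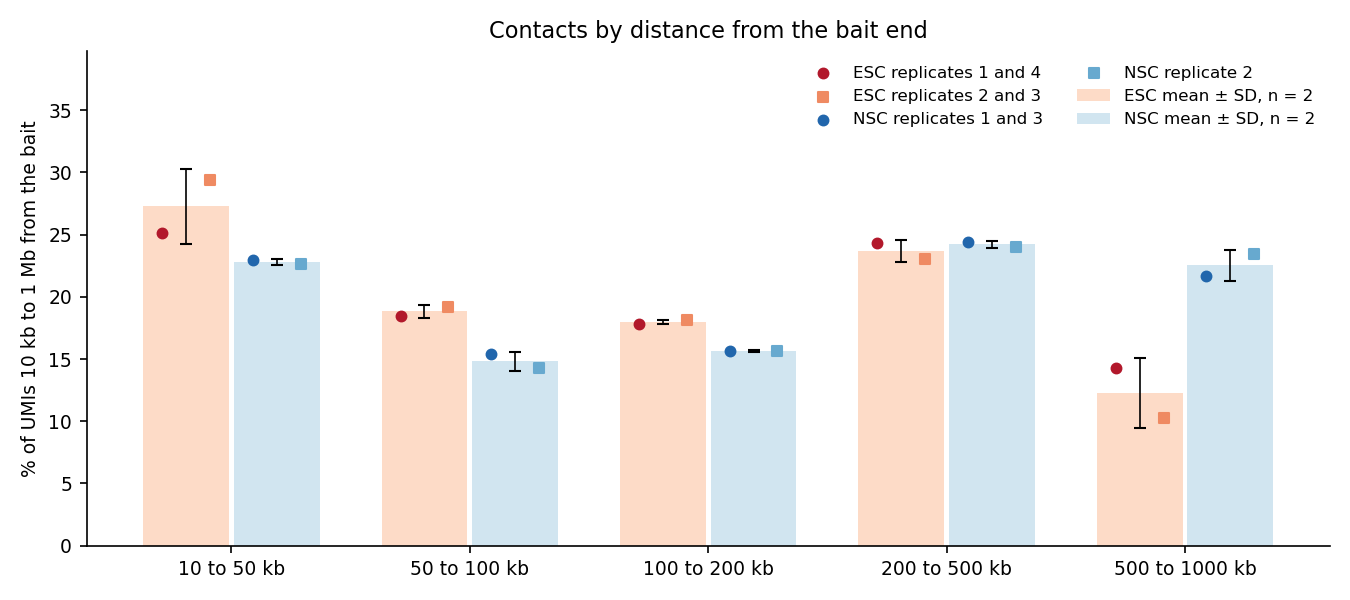
Share of the region's UMIs (y axis, in percent) in 5 distance bands (x axis). Bars are means of 2 samples with SD and symbols are single samples, and the ESC symbols lie above those of NSC in the 3 bands up to 200 kb and below them between 500 kb and 1 Mb (12.2% against 22.5%).

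A straight line through the logarithm of UMIs per kb against the logarithm of distance, over 12 bands of equal log width, gave slopes of −0.87 in ESC A, −0.99 in ESC B, −0.77 in NSC A and −0.75 in NSC B. The decay was thus steeper in both ESC samples, by 0.17 on average. The distance within which 50% of the region's UMIs lay was 129 and 106 kb in ESC and 166 and 174 kb in NSC. On the side of lower coordinates this distance was 81.2 kb ± 8.99 (SD, n = 2) in ESC and 122 kb ± 10.7 in NSC, and on the side that holds Stag1 it was 179 kb ± 35.7 and 277 kb ± 2.17. Within ESC the shallower sample, ESC B, had the steeper decay, and the part of depth in this difference was not tested.

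For each of these measures except the band of 200 to 500 kb, where p was 0.667, the two-sided exact permutation test gave p = 0.333, the smallest that 2 samples against 2 can give. Taking all 7 libraries as replicates, the exact permutation p was 0.0286 for the bands of 50 to 100, 100 to 200 and 500 to 1000 kb and for the slope, and 0.0857 for that of 10 to 50 kb, but repeat libraries then count more than once. Most close ends were listed in every library: 84.9% to 92.9% of the ends available between 10 and 50 kb had a UMI, against 6.29% to 24.6% between 500 kb and 1 Mb. Counting every end once reduced the difference at 10 to 50 kb from 4.49 to 0.322 percentage points, that at 50 to 100 kb from 4.01 to 1.35 and that in slope from −0.17 to −0.04, while −8.15 remained at 500 kb to 1 Mb.

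At equal distance, the side of the bait that holds the body of Stag1 took a larger part of the contacts in ESC than in NSC. Between 100 and 200 kb, the side of lower coordinates received 51.5% of the band's UMIs in ESC A and 45.5% in ESC B, against 59.2% in NSC A and 58.4% in NSC B. The mean difference was −10.3 percentage points, and the 4 ESC libraries (45.1% to 51.5%) lay below the 3 NSC libraries (58.4% to 59.3%). Between 200 and 500 kb, the lower side received 23.9% and 23.1% in ESC and 27.9% and 31.7% in NSC, a difference of −6.30 percentage points. The remaining contacts of these bands fell on the side that holds Stag1, whose gene body extends to 339 kb from the bait. Closer to the bait, from 10 to 50 kb, the lower side took 56.0% ± 1.11 (SD, n = 2) in ESC and 56.8% ± 0.683 in NSC, and the samples overlapped. From 500 kb to 1 Mb the order was turned, with 48.9% in both ESC samples and 46.1% and 46.7% in NSC. Where the samples did not overlap the exact permutation p was again 0.333. With each end counted once, the differences were −5.00 percentage points at 100 to 200 kb and −3.59 at 200 to 500 kb.

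**Figure D2:**
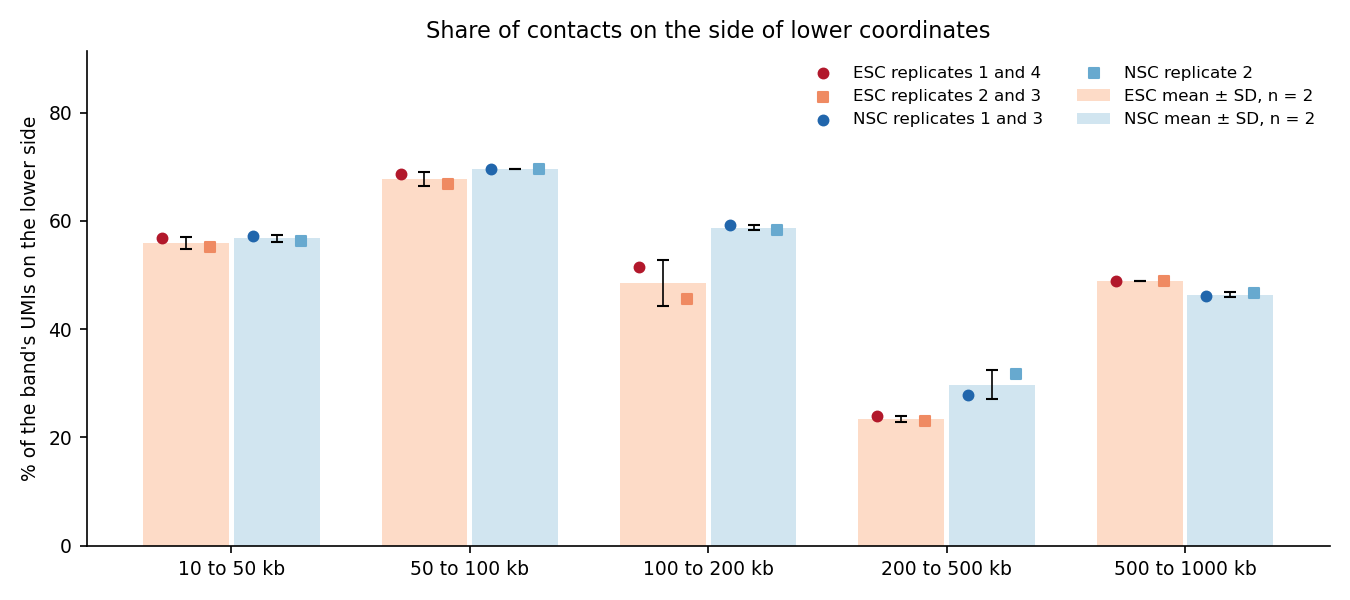
Percentage of the UMIs of each distance band that fell on the side of lower coordinates (y axis) by band (x axis). Bars are means of 2 samples with SD, symbols are single samples, and the ESC samples lie below those of NSC at 100 to 200 kb (48.5% against 58.8%) and at 200 to 500 kb (23.5% against 29.8%).

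The 2 groups of Stag1 starts that flank the bait were compared within each sample, since they lie at nearly the same distance from it on opposite sides. Within 5 kb of the first start lay 4.01% and 4.37% of the region's UMIs in ESC and 3.67% and 3.59% in NSC. Within 5 kb of the canonical start lay 3.33% and 4.13% in ESC and 3.39% and 3.005% in NSC. The first start was thus contacted more in both ESC samples, whereas the samples overlapped at the canonical start. The ratio of the first to the canonical start was 1.20 and 1.06 in ESC and 1.08 and 1.19 in NSC, so that the samples of the cell types interleaved. In single libraries the first start held 50.8% to 54.7% of the UMIs of both starts in ESC and 51.7% to 54.4% in NSC, and the 95% Wilson intervals of all 7 libraries overlapped, which cover counting error only. A preference of the bait for either start was thus not distinguishable between the cell types at this depth.

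The annotated starts and ends of Stag1 transcripts outside the excluded zone, both starts above included, were described in the same way, with those up to 5 kb apart merged. Of 16 such positions, 7 starts and 9 ends, the samples did not overlap at 11, and ESC was higher at each of those 11. The samples did not overlap in 80% of all windows of 20 kb in the region, so this count is not particular to annotated positions. A start and an end that lie close together share UMIs. Internal starts at 214 and 225 kb from the bait had 0.683% and 0.900%, and 0.668% and 0.712%, in the ESC samples, against 0.631% and 0.396%, and 0.439% and 0.373%, in NSC. At the 3′ end of the gene, 339 kb away, the samples overlapped, with 0.508% and 0.386% in ESC and 0.351% and 0.443% in NSC.

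In windows of 20 kb, 100 entered edgeR's quasi-likelihood test and 24 passed an adjusted p of 0.05 (24%), 8 of them with more contact in ESC (8%) and 16 with more in NSC (16%). The samples of the cell types did not overlap in 80 windows (80%). The median log2 fold change over all windows was −0.45, so the fold changes, given as ESC over NSC on shares of the region, should be read against that value and not only against 0. The windows over Stag1 stood on the positive side: all 19 had a positive log2 fold change (median 0.43), against 28 of the 100 windows, 6 were called higher in ESC (31.6%, against 8% of all windows) and none was called higher in NSC. All Stag1 windows, however, are centred within 330 kb of the bait, whereas 50 of the 100 windows lie beyond 500 kb, where 1 was positive. Within 100 kb all 5 windows on each side were positive and 2 of 5 were called higher in ESC on each. On the lower side the 2 called lie outside Stag1. The 10 Stag1 windows that lie between 100 and 300 kb from the bait had a median of 0.46, whereas 4 of 10 windows were positive at the same distances on the lower side (median −0.14).

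**Figure D3:**
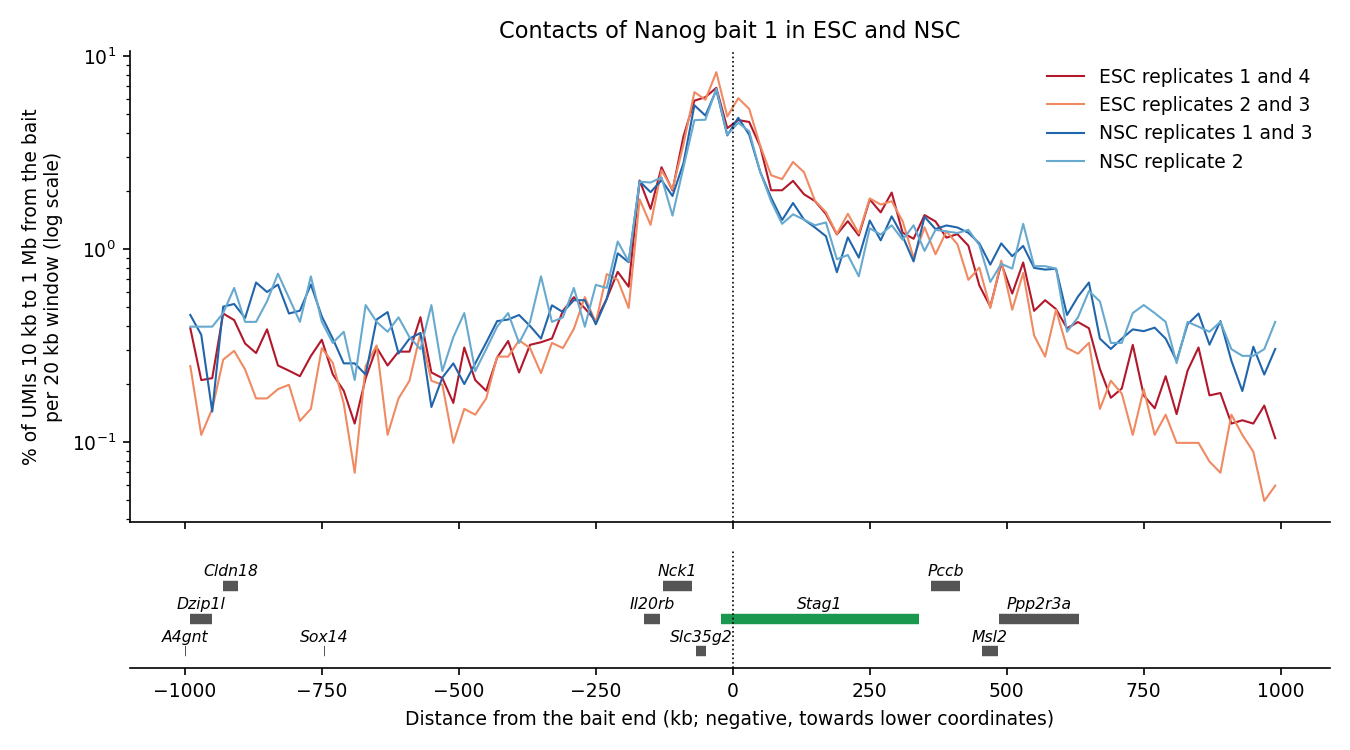
Percentage of the region's UMIs per 20 kb window (y axis, log scale) against distance of the window centre from the bait (x axis, kb) in the 4 samples, with protein-coding genes below and Stag1 in green. The windows at the bait lack part of their span because 10 kb on either side was left out, and both NSC samples run above the ESC samples over most windows beyond 500 kb.

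The window with the largest gain in ESC was chr9:100700001-100720000, in Stag1 about 90.0 kb from the bait, with 2.02% and 2.31% of the region's UMIs in ESC and 1.41% and 1.35% in NSC. The log2 fold change was 0.61 (SE 0.11), with an adjusted p of 0.0393 in edgeR. Among called windows the next 4 also lay in Stag1, at 100660001, 100760001, 100800001 and 100880001 (window starts), with log2 fold changes of 0.44 to 0.55. Stag1 windows that did not pass had values as large, such as 100740001 and 100720001 (0.59 each, edgeR adjusted p 0.0564 and 0.0525). At 100880001 to 100900000, 270 kb from the bait, ESC had 1.55% and 1.70% and NSC 1.11% and 1.19%. In each of these 5 windows the samples of the cell types stood apart, which the rule that chose them required. Outside Stag1, 2 windows were called higher in ESC, one over Nck1 (0.44), which encodes an adaptor of signalling from receptor tyrosine kinases, and one over Slc35g2 (0.33), a member of a family of solute carriers.

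Windows that hold the first start, the canonical starts and the 3′ end of Stag1 were not called in this fit. That at 100880001, above, holds one of the internal starts. The windows of the other internal starts, at 100780001, 100820001, 100840001 and 100940001, were not called (edgeR adjusted p 0.111, 0.0603, 0.0558 and 0.988). At the first start (100580001 to 100600000) ESC had 6.86% and 8.26% and NSC 6.68% and 6.78%, with a log2 fold change of 0.15. At the canonical starts (100640001 to 100660000, which also holds the bait named Nanog bait 2) it was 0.29 (edgeR adjusted p 0.0928), and at the 3′ end (100940001 to 100960000) it was 0.0038, with overlapping samples. The window of the canonical starts passed in 6 alternatives, among them TMM factors (0.69, edgeR adjusted p 0.0193) and DESeq2 (0.78), and that of the first start in 2, DESeq2 (0.65) and without ESC replicates 1 and 4 (0.29). The window that holds the CTCF bait (100440001 to 100460000), near Il20rb, had 2.27% and 1.81% in ESC and 2.24% in both NSC samples. The next window outwards, at 100420001, held only 0.638% and 0.495% in ESC and 0.855% and 0.862% in NSC. In all 4 samples the share per window thus fell to less than 50% from one window to the next. The first of these windows holds 54 GATC sites, however, and the second 29. The shares were not scaled to the number of sites.

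The largest gains in NSC lay far out on both sides. At 101600001 to 101620000, 990 kb from the bait, ESC had 0.105% and 0.0593% and NSC 0.303% and 0.419%, a log2 fold change of −1.90 (SE 0.36). These shares rest on 10.5 and 3 UMIs in the ESC samples and 19 and 18 in NSC, where an average of repeat libraries need not be whole. On the other side, 4 adjoining windows between 99780001 and 99860000, in the gap between Cldn18 and Sox14, were called. The first of them had 0.249% and 0.188% in ESC and 0.655% and 0.745% in NSC, with a log2 fold change of −1.57 (SE 0.21, edgeR adjusted p 0.0393), and the fourth −1.51. Both NSC samples lay above both ESC samples there, as in all 16 windows called higher in NSC. The 5 called windows with the largest gain in NSC were completed by those at 101380001 (−1.61) and 101500001 (−1.54).

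**Figure D4:**
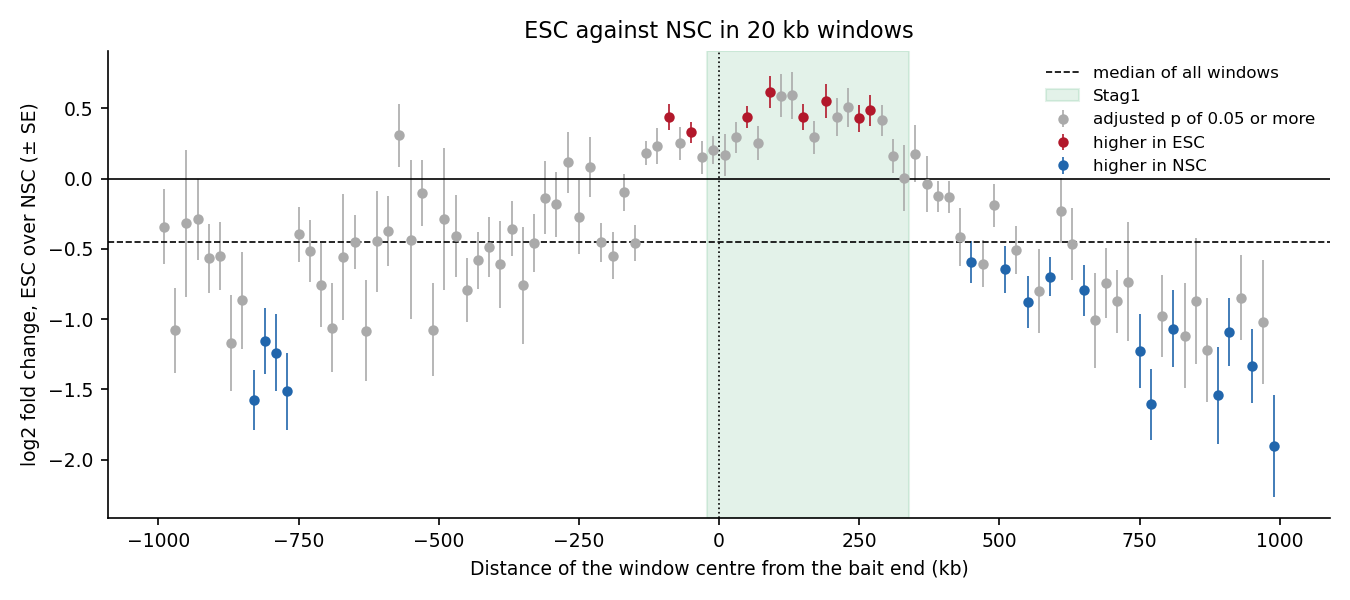
Log2 fold change of ESC over NSC with its SE (y axis) for the 100 windows of 20 kb against distance from the bait (x axis, kb). Red and blue points passed an edgeR adjusted p of 0.05, the shaded span is Stag1 and the dashed line is the median of −0.45, and the 8 red windows lie within 270 kb whereas the 16 blue windows lie 450 kb or more away.

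The split of calls depended on the scaling. With TMM factors 22 windows were higher in ESC and 10 in NSC, with all UMIs outside 10 kb as library size 20 and 3, and with DESeq2 22 and 2. No window was called when the linked pairs were fitted as a block (34 had an unadjusted p under 0.05), when each end was counted once (6), without ESC replicate 3 (44) or without NSC replicate 2 (22). Scaling windows to the total of their own distance band, which takes out the difference in decay, ended all 24 calls, and 3 windows that had not been called passed. One over Il20rb (100460001, log2 fold change −0.64, edgeR adjusted p 0.0017) and one beyond the CTCF bait (100420001, −0.74, adjusted p 0.027) were higher in NSC, while the window of that bait between them did not pass (−0.28). One in the gap between Sox14 and Il20rb (100040001, 1.10, adjusted p 0.008) was higher in ESC. In that fit 15 of the 19 Stag1 windows were positive (median 0.24, against −0.07 over all windows), and none passed.

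The region was also divided at annotated genes. Of 24 intervals with at least 10 UMIs, 8 passed the edgeR test (33.3%), 3 with more contact in ESC (12.5%) and 5 with more in NSC (20.8%), and the samples did not overlap in 18 (75%). The body of Stag1, from the canonical start to the 3′ end, was cut into 4 parts of equal length. Part 1, next to the canonical start, had 10.8% and 11.9% of the region's UMIs in ESC, against 8.24% and 8.39% in NSC (log2 fold change 0.44, SE 0.11, edgeR adjusted p 0.0247). Part 2 had 7.22% and 8.33% in ESC and 5.31% and 5.57% in NSC (0.51, adjusted p 0.0226). Part 3 had 5.48% and 5.75% in ESC and 4.21% and 3.77% in NSC (0.48, adjusted p 0.0226). In these 3 parts every ESC sample lay above every NSC sample. None of the 3 passed with the linked pairs as a block (edgeR adjusted p 0.084, 0.0718 and 0.0878) or without NSC replicate 2 (0.277, 0.183 and 0.262), and no interval was called higher in ESC without NSC replicates 1 and 3.

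The ends of the gene did not pass in the edgeR fit used here on shares of the region. Part 4, which ends at the 3′ end, had 5.81% and 5.72% in ESC and 4.58% and 4.89% in NSC (0.29, edgeR adjusted p 0.0771). The stretch from the first to the canonical start, which holds the bait and lacks its 20 kb, had 11.7% and 14.6% in ESC and 11.6% and 11.4% in NSC (0.18). With all UMIs as library size both passed, at 1.15 and 1.09 (edgeR adjusted p 0.0188 and 0.0459), beside 1.33 to 1.40 for parts 1 to 3. Part 4 passed in 5 alternatives, that one included, and the stretch between the starts in that one only.

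Among the other protein-coding genes within 1 Mb, 2 of the 9 tested passed, both higher in NSC and both beyond the 3′ end of Stag1, a share near the 20.8% of all intervals. Msl2, a ubiquitin ligase of the MSL histone acetyltransferase complex, had 0.922% and 1.01% in ESC, against 1.39% and 1.33% in NSC (log2 fold change −0.51, SE 0.15, edgeR adjusted p 0.0342). Ppp2r3a, a regulatory subunit of the phosphatase PP2A, had 4.21% and 3.33% in ESC and 5.94% and 5.89% in NSC (−0.63, SE 0.14, adjusted p 0.0226). Pccb, a subunit of the mitochondrial enzyme propionyl-CoA carboxylase, lies between them and Stag1 and had nearly equal shares (3.40% and 2.86% against 3.40% and 3.24%). These directions hold for shares of the region. With all UMIs as library size the log2 fold changes were 0.76 for Pccb, 0.33 for Msl2 and 0.19 for Ppp2r3a, and with each end counted once they were 0.0013 for Msl2 and −0.21 for Ppp2r3a, neither of which then passed. Msl2 did not pass with the linked pairs as a block (adjusted p 0.187) or without NSC replicate 2 (0.262).

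On the lower side no gene passed in the edgeR fit used here on shares of the region. The 2 genes next to Stag1 had positive values, Slc35g2 0.24 and Nck1 0.29 (edgeR adjusted p 0.108 and 0.103). Each passed in 4 alternatives, among them all UMIs as library size (1.10 and 1.15, edgeR adjusted p 0.0188 and 0.0195). Il20rb, which encodes a receptor subunit for cytokines of the interleukin 20 family, had −0.25, Cldn18, a tight junction claudin, −0.36 and Dzip1l, a protein of the primary cilium, −0.48. Il20rb passed in 2 alternatives and Cldn18 in 1. Sox14, a transcription factor of the developing nervous system, spans only 2.07 kb and collected 12 UMIs over the 4 samples, and A4gnt had too few to be tested. In contrast, the gap between Cldn18 and Sox14 was called higher in NSC (2.18% and 1.41% in ESC, 4.34% and 4.22% in NSC, a log2 fold change of −1.20, adjusted p 0.0078). So was the stretch from Ppp2r3a to the edge of the region (3.61% and 2.40% against 6.48% and 7.20%, −1.14, adjusted p 0.0078), and the gap between Pccb and Msl2 (−0.48, adjusted p 0.0245) completed the 5. With the linked pairs as a block 3 of these 5 passed, Ppp2r3a among them and Msl2 not. With TMM factors the 3 parts of Stag1 no longer passed and 5 intervals remained higher in NSC. With all UMIs as library size 12 were higher in ESC and none in NSC, and with each end counted once none passed in either direction.

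Beyond 1 Mb on chromosome 9, NSC contacts reached further towards the low end of the chromosome. Of the UMIs in this class, 8.14% in ESC A and 7.10% in ESC B fell between 2 and 44 Mb, against 12.8% in NSC A and 13.7% in NSC B. The difference of −5.62 percentage points was −4.69 in the first linked pair and −6.56 in the second. On the other side, more than 3.38 Mb from the bait, the shares were 25.9% and 22.2% in ESC and 21.4% and 21.6% in NSC. These segments were not among the planned measures. Their edges were set with earlier results of these data known, so the shares only describe the samples.

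In windows of 2 Mb, 14 of 62 passed the edgeR test (22.6%), 5 in favour of ESC (8.06%) and 9 in favour of NSC (14.5%), with no overlap of samples in 37 (59.7%). The median log2 fold change was −0.08. Of the 9 windows higher in NSC, 8 lay between 14 and 42 Mb, that is 59.6 to 85.6 Mb from the bait, and the remaining one adjoined the region. Among the called windows, the largest changes were at chr9:26000001-28000000 (−1.08), 28000001-30000000 (−1.06) and 20000001-22000000 (−0.97). In the first of these the shares were 0.317% and 0.449% in ESC and 0.740% and 0.774% in NSC, from 26.5, 10.5, 57 and 47 UMIs (edgeR adjusted p 0.0096).

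The windows higher in ESC were led by chr9:112000001-114000000 (0.61), its neighbour to 116000000 (0.59) and 64000001-66000000 (0.55). The first held 1.85% and 2.03% in ESC and 1.19% and 1.30% in NSC (edgeR adjusted p 0.0062), 12.4 Mb from the bait. The window just outside the region on the higher side, of which only the part beyond 101619989 was counted, had 2.75% and 2.76% in ESC and 4.47% and 4.02% in NSC (−0.63, adjusted p 2.8e-04). The window that adjoins the region on the lower side, 98000001 to 100000000, was higher in ESC, with 12.01% and 13.1% in ESC and 9.24% and 9.45% in NSC (0.41, adjusted p 0.021). These windows are not counterparts in distance, since the first covers 0.380 Mb up to 1.38 Mb from the bait and the second 1.62 Mb up to 2.62 Mb. With all UMIs as library size no window was higher in ESC and 11 were higher in NSC, and DESeq2 called 1 window, higher in ESC. Without ESC replicates 1 and 4 edgeR called no window, and 8 had an unadjusted p under 0.05.

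**Figure D5:**
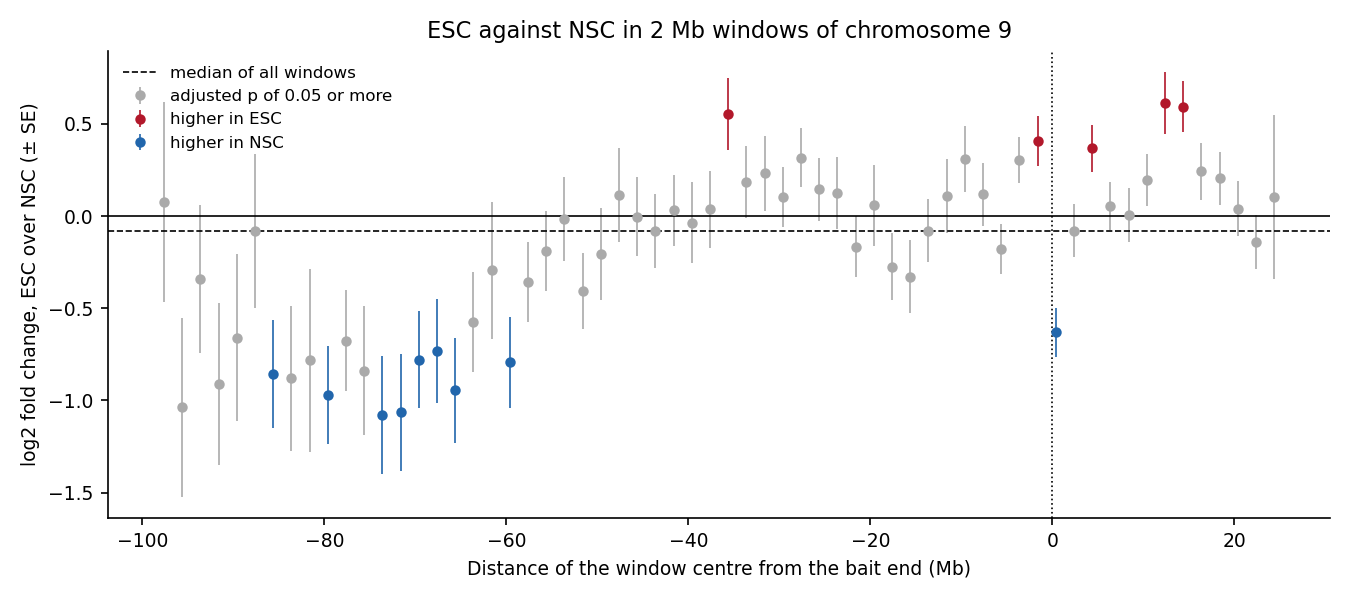
Log2 fold change of ESC over NSC with its SE (y axis) for 62 windows of 2 Mb on chromosome 9 against distance from the bait (x axis, Mb). Red points passed an edgeR adjusted p of 0.05 in favour of ESC (5 windows) and blue points in favour of NSC (9 windows, 8 of them between 59.6 and 85.6 Mb on the lower side).

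Over the whole genome outside 10 kb, contacts with other chromosomes made up a smaller share of the UMIs in ESC. They took 30.0% of UMIs in ESC A and 18.6% in ESC B, and 38.8% and 42.6% in the NSC samples. The region within 1 Mb took 38.2% and 55.7% in ESC and 27.5% and 23.8% in NSC. Between 1 and 10 Mb the shares were close, at 14.3% ± 1.51 (SD, n = 2) in ESC and 15.6% ± 0.325 in NSC. Beyond 10 Mb they were 14.5% ± 2.80 and 18.1% ± 0.222. The samples did not overlap in any of these 4 classes, and the exact permutation p was 0.333 for each. With each end counted once, the difference within 1 Mb fell from 21.3 to 12.04 percentage points, that beyond 10 Mb was −0.770 in place of −3.55, and that between 1 and 10 Mb changed sign (1.82). The ESC samples differed from each other by more than the NSC samples did, and ESC B had both the fewest UMIs and the smallest share on other chromosomes. The part of depth in this difference was not tested.

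Calls among the other chromosomes depended on the processing. Of 20 chromosomes, edgeR called none (0%), 2 had an unadjusted p under 0.05, DESeq2 called 2, edgeR called 2 with each end counted once or without ESC replicate 2, and the samples did not overlap for 7 (35%). Chromosome 3 had 5.27% in both ESC samples and 6.03% and 6.37% in NSC (log2 fold change −0.23, edgeR adjusted p 0.0632). The Y chromosome had 0.159% and 0.148% in ESC and 0.0453% and 0.013% in NSC (2.40, adjusted p 0.0632), but only 20 UMIs in all 4 samples. For chromosomes 19 and 16, which followed by p among those higher in ESC, and 1 and 6, among those higher in NSC, the log2 fold changes were 0.26, 0.17, −0.11 and −0.08, and none passed in this fit.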

How the data were processed

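UMI-4C libraries were sequenced together on a HiSeq instrument. The submitters' processing notes name Bowtie2 and mm10, and the rules for collapsing UMIs are not given in the sources used here. The authors deposited 1 table of pairs of fragment ends per library, whose values are raw UMI counts, and every pair was listed in both directions. Members, gene lists and windows were chosen with earlier results of these data known.

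Counts of repeat libraries were averaged, with a remainder of 0.5 rounded up. Windows, intervals and chromosomes with at least 10 UMIs entered edgeR's quasi-likelihood test (edgeR 4.0.16 on R 4.3.3 and limma 3.58.1). The library size was the summed count of each class, with Benjamini-Hochberg adjustment. Shares were compared with two-sided exact permutation tests. DESeq2 1.42.0 was an alternative. On simulated data with a log2 fold of 1.5, 182 of 200 changed windows were recovered over 10 draws, with 15 false calls. The draws had a fixed spread and no difference in decay between the cell types. Windows called higher in ESC had log2 folds of only 0.33 to 0.61, and recovery at that size was not measured. Intervals and floors (3 UMIs) cover counting error only.

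Windows named are the 5 called with the largest fold in each direction whose samples did not overlap. Those holding the first and canonical Stag1 starts, its 3′ end and the other baits are named too. Every gene and Stag1 part is named, and for 2 Mb windows and other chromosomes the 3 leading ones in each direction, by p where none was called. The other windows called higher in ESC, 2 Stag1 windows that did not pass and those of the internal Stag1 starts were named after their values were seen. So were the window pair at the CTCF bait, those passing under the distance scaling and the 2 Mb windows next to the region. Genes come from GENCODE vM21. Contacts within 10 kb and the libraries of other baits were not used.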

Additional observations from a re-analysis of the deposited data

How the results depend on the processing

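The precision is limited by 2 samples per cell type and by depth. The second linked pair holds the shallowest sample, ESC B, and single windows far from the bait hold few UMIs. Where a value below differs, the cause was not tested. The alternatives for the ratio of starts, the bands as shares of all UMIs, the side shares, the median distance, the chromosome segments, the rounding and the 6 libraries without a block were chosen after seeing the data.

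Taking all 7 libraries as replicates, 63 windows of 20 kb, 14 intervals, 30 windows of 2 Mb and 3 other chromosomes passed. The differences were then 3.80 percentage points at 50 to 100 kb, 2.36 at 100 to 200 kb, −10.1 at 500 kb to 1 Mb, −15.8 for other chromosomes and −0.17 for the slope, each with an exact permutation p of 0.0286. Over windows, the deviations of same-numbered libraries were not alike (r = −0.20, −0.02 and 0.05 for replicates 1 to 3), so the numbers do not pair them. With the replicate block 57 windows, 12 intervals, 23 windows of 2 Mb and 2 chromosomes passed, against 59, 15, 24 and 2 for the same 6 libraries without the block, and the 24 windows, 8 intervals and 14 windows of 2 Mb called over samples were among both. With that block the distance bands kept their signs. The difference was 3.86 percentage points at 50 to 100 kb and −10.8 at 500 kb to 1 Mb (exact p of 0.25, the smallest possible). With the linked pairs as a block, 0 windows of 20 kb, 3 intervals (0 higher in ESC) and 11 windows of 2 Mb passed.

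With each end counted once, 0 windows, 0 intervals and 2 chromosomes passed, and the bands of 200 to 500 kb (3.64) and 1 to 10 Mb (1.82) and the lower-side share at 10 to 50 kb (0.499) changed sign. As shares of all UMIs the band of 200 to 500 kb also changed sign (4.85) and that of 500 kb to 1 Mb was −0.182. TMM factors left 5 intervals. DESeq2 called 1 window of 2 Mb and 2 chromosomes. Windows of 10 kb gave 14 calls, a region of 500 kb 11, scaling to distance bands 3, leaving out 20 kb around the bait 41, windows of 1 Mb 8, and leaving out ends listed in both cell types 2 chromosomes.

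Leaving out single libraries or repeat pairs gave 0 to 38 windows of 20 kb, 2 to 9 intervals, 0 to 18 windows of 2 Mb and 0 to 2 chromosomes. The windows of 20 kb fell to 0 without ESC replicate 3, without NSC replicate 2, without ESC replicates 2 and 3 and without NSC replicates 1 and 3. The windows of 2 Mb fell to 5 without NSC replicate 2, 0 without ESC replicates 1 and 4, 4 without ESC replicates 2 and 3 and 6 without NSC replicates 1 and 3. Intervals fell to 3 without NSC replicate 2 and to 2 without NSC replicates 1 and 3, with 0 higher in ESC in both. With a lone sample in a cell type, its spread was taken to be that of the other. The differences ranged from 3.46 to 4.10 at 50 to 100 kb and from −10.7 to −9.41 at 500 kb to 1 Mb, and the ratio of first to canonical start, which differed by −0.0088, ranged from −0.022 to 0.046 and was 0.016 over 7 libraries.

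Some named values that had not passed, or that depend on library size, changed sign. The window of the first Stag1 start had −0.027 with a region of 500 kb and −0.079 scaled to distance bands, and that of the canonical starts −0.012 with each end counted once. The window of the CTCF bait had 0.10 with each end counted once, 0.25 with TMM factors, 0.70 with all UMIs, 0.32 with DESeq2 and 0.030 with a region of 2 Mb, and −0.31 to 0.017 with libraries left out. The window of the Stag1 3′ end had −0.036 with the deeper library of each pair, −0.0042 without rounding, −0.16 with a region of 500 kb and −0.34 to 0.29 with libraries left out. With all UMIs as library size, Dzip1l had 0.26, Cldn18 0.40, Il20rb 0.59, Pccb 0.76, Msl2 0.33, Ppp2r3a 0.19, chromosome 19 −0.51 and chromosome 16 −0.54. With each end counted once, Cldn18 had 0.11, Il20rb 0.051, Pccb 0.049 and Msl2 0.0013. Pccb ranged from −0.22 to 0.032 with libraries left out.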
